A study of Homo sapiens with 4 samples.

Results

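RNA polymerase II transcribes the protein-coding genes, and its subunit genes and the genes of the factors that carry it through elongation form the group described here. It holds 39 genes chosen by symbol: 12 subunit genes, POLR2A to POLR2L, and 27 genes of elongation factors. Their sense-strand entries were taken from 57428 genes with such an entry, and 39 of 39 passed the filter on low counts, which 21238 genes passed in all. The nascent RNA came from U2OS, a human osteosarcoma cell line, that stably overexpressed GFP-DCP1a (a decapping cofactor fused to green fluorescent protein) in every library, controls included, under selection with G418. In the hypertonic group, with 2 libraries, the medium held 300 mM sodium after the addition of concentrated phosphate-buffered saline. In the isotonic group, also with 2 libraries, it held 150 mM and received an equal volume of ordinary saline. Cells took up 2 mM bromouridine for 30 min, and the labelled RNA was pulled down with an antibody with no chase (Bru-seq). The labels do not give the length of the exposure to salt, where in that exposure the labelling fell, whether the replicates were separate cultures, or whether the cells were 1 clone. The spread behind every p-value is that of these libraries and could be technical.

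After initiation, polymerase II commonly pauses a short way into a gene, held there by the negative elongation factor NELF and by DSIF. P-TEFb, the kinase CDK9 with a cyclin T, releases it by phosphorylating NELF, DSIF and the polymerase's C-terminal domain (CTD). Much of the P-TEFb of a cell is stored inactive in the 7SK ribonucleoprotein, where HEXIM1 inhibits the kinase, while the super elongation complex brings active P-TEFb to genes.

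Total counts were 23048409 to 28367788 in the hypertonic and 23410787 to 44888307 in the isotonic libraries. Of 6 markers of mesenchymal bone-lineage cells, 5 had reads in every library, VIM at 15.3 to 46.1 RPKM, while COL1A2 had 0 to 2 reads. The blood markers CD3E and HBB had 0 reads, and PTPRC had 74 to 140. All 4 epithelial markers had reads, with a summed level of 3.37 and 4.94 RPKM in the hypertonic and 2.06 and 2.52 in the isotonic libraries, mostly from KRT18, and the part of this difference in the results was not tested. DCP1A, which the cells overexpress, measured 4.90 and 3.10 RPKM in the hypertonic against 4.42 and 9.82 in the isotonic libraries. A level is a TMM-scaled RPKM, reads per kilobase of counted gene scaled to the effective library size. It is relative to the other genes of the same library. A change shared by all genes, such as fewer cells or less RNA per cell, does not show in it.

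Between hypertonic and isotonic libraries, the 39 genes showed mostly lower values for the cyclins of the CTD kinases and for some small polymerase subunits, a higher value for HEXIM1, and wide gaps between the 2 hypertonic libraries. None of the 39 passed edgeR's quasi-likelihood test at an adjusted p of 0.05, where 0.0% of the 21238 genes passed in either direction. CCNT2 and ELL2 were lower and HEXIM1 higher at an unadjusted p under 0.05, against 2.01% of all genes tested that were lower and 8.89% that were higher at that level, and 6.61% and 1.41% of expressed protein-coding genes. DESeq2 also called 0 of the 39 (0.118% of genes lower and 3.32% higher), and limma-voom called 0 genes in all. The fitted log2 fold change was negative for 27 of the 39, with a median of -0.21. Over all genes tested 47.6% were negative and the median was 0.04, and it was -0.33 over the 4828 protein-coding genes with a mean RPKM of at least 1, of which 77.2% were negative. The 12 subunit genes had a median of -0.26 with 9 negative, and the 27 elongation factor genes a median of -0.21 with 18 negative. With total counts in place of TMM factors these 2 medians were 0.02 and 0.01, and that of all genes was 0.26.

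**Figure D1:**
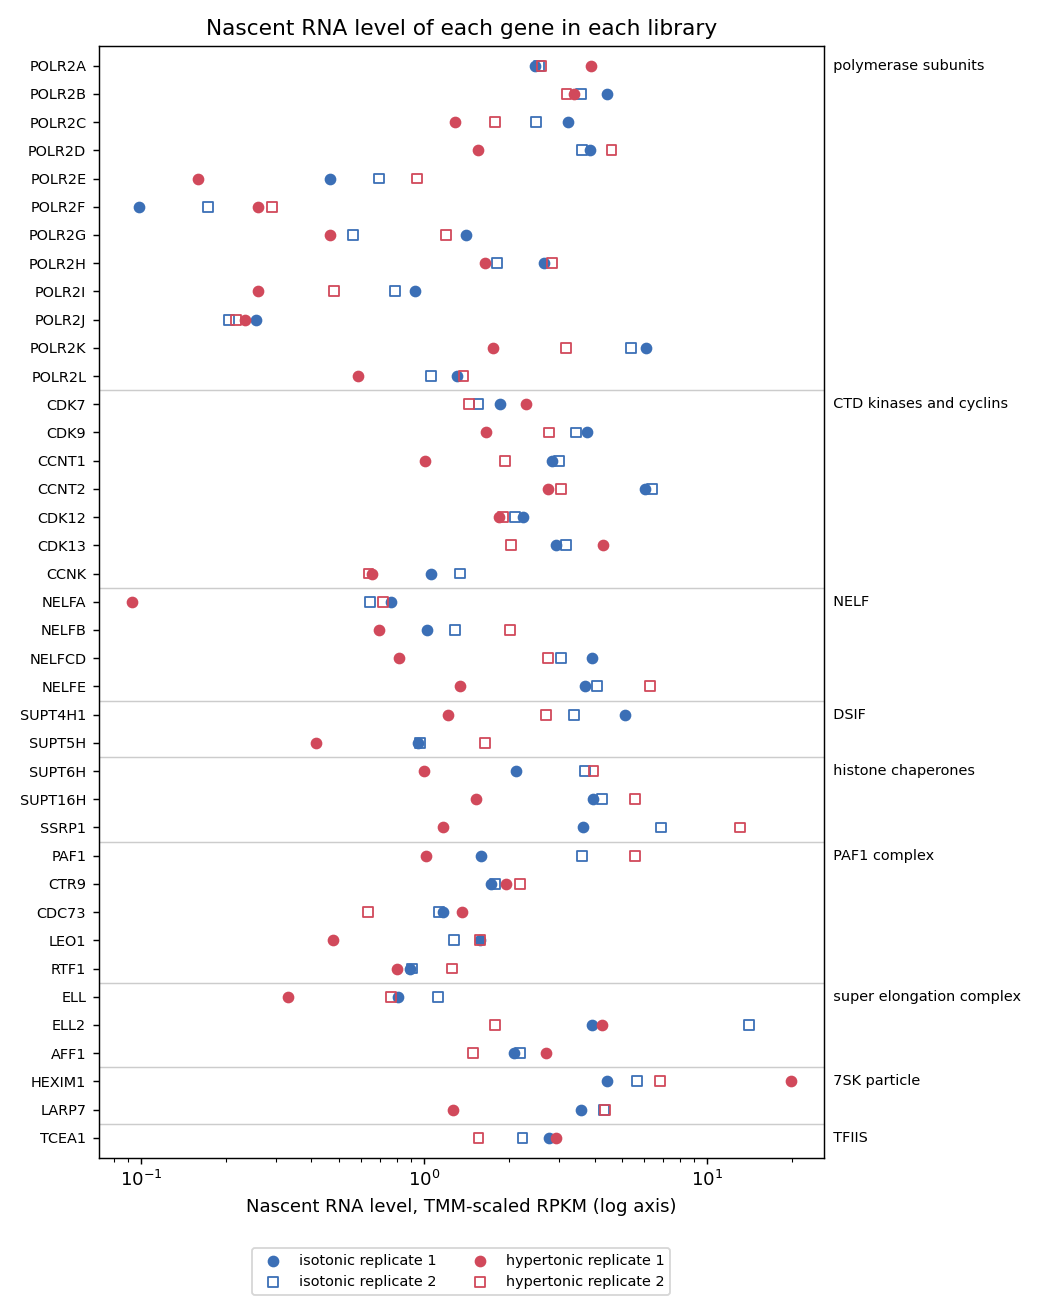
Nascent RNA level of each of the 39 genes in each library, as TMM-scaled RPKM on a log axis, with genes grouped by role; filled circles are replicate 1 and open squares replicate 2, blue isotonic and red hypertonic. The blue symbols mostly lie close together, while the red circle lies left of the red square for most genes and far to the right for HEXIM1.

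The plot of levels by library shows wider gaps between the hypertonic libraries than between the isotonic ones. For 33 of the 39 genes the 2 hypertonic libraries lay further apart than the 2 isotonic ones. The same held for 15645 of all 21238 genes tested and for 3848 of the 4828 expressed protein-coding genes. The median gap was 1.11 on the log2 scale between the hypertonic and 0.29 between the isotonic libraries, against 0.78 and 0.25 over the 4828 expressed protein-coding genes. Relative to the isotonic mean, the median of the 39 was -1.12 in hypertonic replicate 1 and 0.03 in replicate 2, where the expressed protein-coding genes had -0.53 and -0.33. For 22 of the 39, the hypertonic libraries lay on opposite sides of the isotonic mean, as did 44.9% of all genes tested and 41.9% of the expressed protein-coding ones. For 12 genes the 2 hypertonic values were the lowest of the 4, and for 4 genes they were the highest. The same was seen for 17.5% and 22.5% of all genes tested and for 38.7% and 5.32% of expressed protein-coding genes. Without hypertonic replicate 2, which leaves replicate 1 alone on the assumption that it varies like the isotonic pair, edgeR called 16 of the 39, 15 lower and HEXIM1 higher (over all genes 10.3% lower and 11.1% higher, over the expressed protein-coding genes 29.9% and 4.47%). The 15 lower ones were the subunits POLR2D and POLR2K, the cyclins CCNT1 and CCNT2, NELFA, NELFCD and NELFE, both DSIF genes, all 3 histone chaperones, LEO1, ELL and LARP7. Leaving out hypertonic replicate 1 instead gave 0 calls among the 39 and 0.0% of genes in each direction. With isotonic replicate 1 left out 0 of the 39 were called (0.0085% of genes lower and 0.017% higher), with isotonic replicate 2 left out again 0 (0.0% and 0.0165%), and with the replicate number as a block also 0 (0.0188% and 1.79%).

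**Figure D2:**
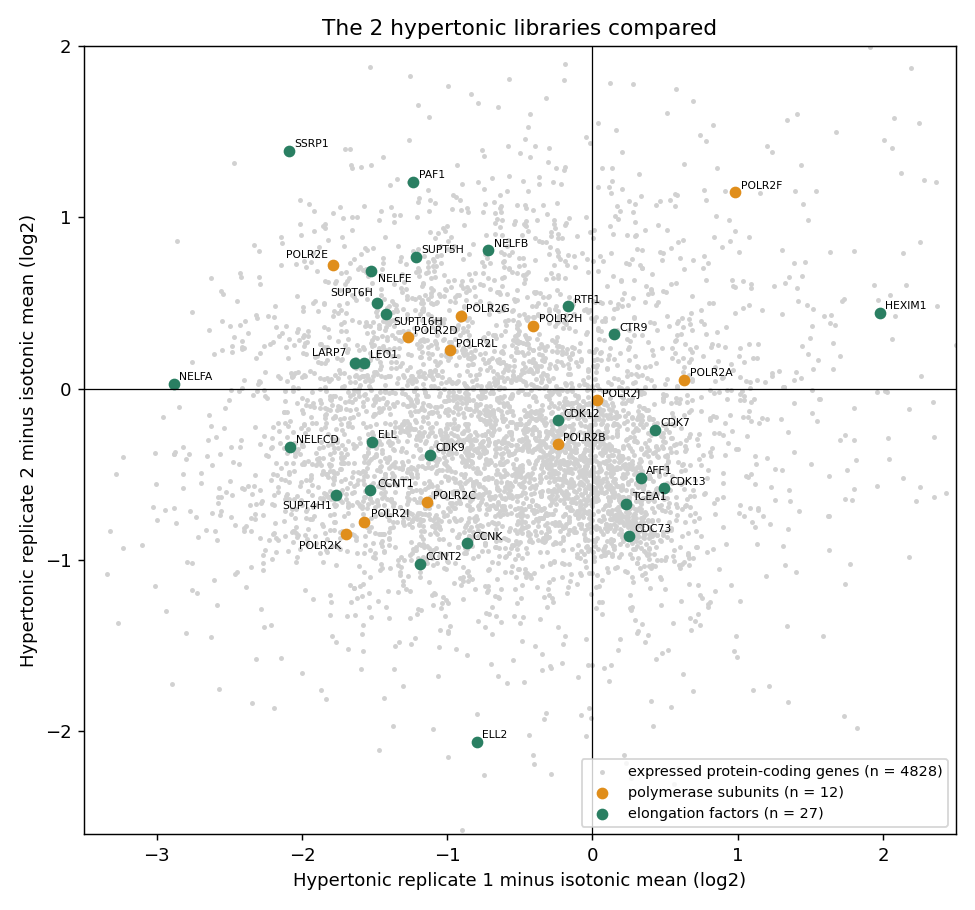
Difference from the isotonic mean (log2 CPM) in hypertonic replicate 1 on the x axis and hypertonic replicate 2 on the y axis, for the 12 subunit genes (orange), the 27 elongation factor genes (green) and the 4828 expressed protein-coding genes (grey; those beyond the axes are not drawn). Many of the genes lie in the upper left, below the isotonic mean in replicate 1 and above it in replicate 2, and HEXIM1 and POLR2F lie at the upper right.

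Start-site sequences are shown for genes whose values the results turn on, from RefSeq's promoter windows on GRCh38.p14, which matched 32 of the 39 genes with 40 windows; POLR2G, POLR2I, POLR2J, POLR2K, ELL2, TCEA1 and CDC73 had no window matched. In all, 8 short motifs, chosen after the values were seen, were searched on both strands in the 250 bases before each start, and the matches of 4 of them that fall in the printed sequences are marked; overlapping matches count under each motif. HEXIM1 is shown as the gene with the largest positive fold change, and its 100 bases lie at chr17:45148375-45148474 on the plus strand. POLR2A, the catalytic subunit, has chr17:7484266-7484365 on the plus strand, and SSRP1, whose hypertonic libraries were furthest apart, has chr11:57335893-57335992 on the minus strand. Each runs 5′ to 3′ and ends at the base before the start, with motif matches in capitals.
HEXIM1: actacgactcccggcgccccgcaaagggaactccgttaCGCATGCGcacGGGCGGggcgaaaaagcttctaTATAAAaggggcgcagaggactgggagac
POLR2A: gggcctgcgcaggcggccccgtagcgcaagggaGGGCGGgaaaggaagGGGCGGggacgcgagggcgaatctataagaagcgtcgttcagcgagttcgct
SSRP1: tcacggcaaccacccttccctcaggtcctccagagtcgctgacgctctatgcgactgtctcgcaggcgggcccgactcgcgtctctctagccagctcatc

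The TATA box (TATAAA) was in 1 of the 40 windows, that of HEXIM1, where it spans bases -29 to -24 from the start, and in 10.7% of all 35116 promoter windows. The GC box (GGGCGG) was in 72.5% of the 40 windows against 42.6% of all, and the CCAAT box (CCAAT) in 20.0% against 32.0%. CCGGAAG, a site of ETS factors, was in 22.5% against 8.52%. GCATGCG, the core of the NRF1 site, which can match both strands at once, was in 15.0% against 3.39%, HEXIM1 included. Shares are of windows, some of which overlap, and the 6 windows with this core belong to 5 genes. The longer NRF1 site, this core with GC before it and C after it, was searched first. It was in 12.5% against 1.03%, in 5 windows of 4 genes, without HEXIM1. The other motifs searched, with no match marked, were TGACGTCA, the cyclic AMP response element, in 2.5% against 1.65%, and GGAAAA, the core bound by NFAT factors, in 10.0% against 21.2%. Short stretches are printed for 2 of the genes with lower values in both hypertonic libraries. CCNT2 (chr2:134918694-134918723, plus strand, bases -128 to -99) holds the NRF1 core beside a GC box, and SUPT4H1 (chr17:58352225-58352254, minus strand, bases -53 to -24) holds the ETS letters at 2 places. Both stretches precede a RefSeq start but lie within the GENCODE 29 span of their gene, and that of SUPT4H1 lies within its counted entry. A match is a description of letters and not of a bound site. The 35116 windows were not limited to genes expressed in these libraries. Whether the motif shares of the 40 windows differ from those of expressed genes alone was not tested.
CCNT2: gagcgggccccgCGCATGCGcaaGGGCGGa
SUPT4H1: CCGGAAGaggaagtctaagcgCCGGAAGtg

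Among the 12 subunits, POLR2A and POLR2B form the catalytic core and were close to the isotonic level. POLR2A (ENSG00000181222, chr17:7484620-7499758) measured 3.89 RPKM in hypertonic replicate 1, 2.60 in hypertonic replicate 2, and 2.47 and 2.55 in the isotonic libraries; values are given in this order throughout. Only hypertonic replicate 1 stood clear of the others, and the log2 fold change was 0.37 ± 0.45 (SE, n = 2 per group; edgeR adjusted p = 0.92). Its deposited entry spans 50.0% of the GENCODE 29 gene. POLR2B (ENSG00000047315, chr4:56977742-57031168) measured 3.38 and 3.18 against 4.42 and 3.59 RPKM. Both hypertonic values were lower, but the nearest values of the groups lay closer together than the isotonic libraries did, with a log2 fold change of -0.29 ± 0.38 (edgeR adjusted p = 0.93).

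POLR2C, POLR2I and POLR2K lay lower in both hypertonic libraries, and none passed the test. POLR2K (ENSG00000147669, chr8:100150584-100154002), a small zinc-binding subunit shared by polymerases I, II and III, measured 1.75 and 3.17 RPKM against 6.09 and 5.39 in the isotonic libraries. The groups did not overlap, and the fitted level was 2.33-fold lower (log2 fold change -1.22 ± 0.58, edgeR adjusted p = 0.50). POLR2I (ENSG00000105258, chr19:36113710-36115346), a zinc-binding subunit at the edge of the enzyme that acts in start-site choice, measured 0.258 and 0.480 against 0.929 and 0.788 RPKM. Its log2 fold change of -1.21 ± 0.77 rests on 10 and 20 reads against 62 and 25 (edgeR adjusted p = 0.67). POLR2C (ENSG00000102978, chr16:57462387-57472010), part of the assembly platform of the enzyme, measured 1.28 and 1.79 against 3.22 and 2.49 RPKM, and its log2 fold change was -0.90 ± 0.52 (edgeR adjusted p = 0.62). Replicate 1 was the lower of the hypertonic libraries for all 3 genes.

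The groups overlapped for POLR2D, POLR2E, POLR2G, POLR2H, POLR2J and POLR2L. POLR2D, which with POLR2G forms the stalk of the enzyme, differed from the isotonic mean by -1.27 (log2) in hypertonic replicate 1 and 0.30 in replicate 2, and POLR2G by -0.91 and 0.42. The shared subunits POLR2E, POLR2H and POLR2L showed the same order, with POLR2E at 0.158 RPKM in replicate 1 and 0.942 in replicate 2 against 0.465 and 0.692 in the isotonic libraries. The deposited POLR2L entry covers 54.4% of the GENCODE gene. POLR2J measured 0.233 and 0.217 against 0.254 and 0.205 RPKM, so that both hypertonic values lay between the isotonic ones, with a log2 fold change of -0.03 ± 0.72. Its near-identical copies POLR2J2 and POLR2J3 could share its reads, so its value is uncertain. The median log2 fold change was -0.07 for the 5 shared subunits and -0.28 for the 7 specific to polymerase II, each with a range that included both signs. The shared set includes POLR2F at 1.03, whose entry does not measure that gene's body alone. Of its other members only POLR2H was positive, at 0.005.

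POLR2F, another subunit common to the 3 nuclear polymerases, had the largest positive value among the subunits, but its deposited entry (ENSG00000100142, chr22:38002890-38041106) begins 33.6 kb after the last base of 5 of the 7 basic GENCODE 29 transcripts. That entry measured 0.260 and 0.291 RPKM in the hypertonic and 0.0982 and 0.173 in the isotonic libraries. The log2 fold change was 1.03 ± 0.62 (edgeR adjusted p = 0.65). The usual gene body lies inside the neighbouring plus-strand entry AL031587.6 (chr22:37948352-38002889), which measured 0.683 and 0.870 against 0.585 and 0.452 RPKM. Both entries read higher in both hypertonic libraries, and neither measures the POLR2F body alone. Without POLR2F, the median of the other 11 subunits was -0.27. The 100 bases before the usual start, at chr22:37953563-37953662 on the plus strand, are printed because they show where the gene begins relative to the entry, with the NRF1 core on both strands in capitals.
POLR2F: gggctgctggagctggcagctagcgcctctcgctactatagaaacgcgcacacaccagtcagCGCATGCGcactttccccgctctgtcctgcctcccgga

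Among the kinases that phosphorylate the CTD and their cyclins, the cyclins had the lower values. For 5 of these 7 genes the 2 hypertonic values were the lowest of the 4, and for 0 the highest, against 17.5% and 22.5% of all genes tested and 38.7% and 5.32% of expressed protein-coding genes. CCNT2 (ENSG00000082258, chr2:134918825-134959342), a cyclin partner of CDK9, measured 2.73 and 3.05 RPKM in the hypertonic and 6.04 and 6.37 in the isotonic libraries. All 4 values lay close to their group mean, 2.89 ± 0.228 against 6.20 ± 0.240 RPKM (SD, n = 2). The fitted level was 2.15-fold lower, with a log2 fold change of -1.10 ± 0.38 (edgeR adjusted p = 0.33). Its log2 fold change was -1.19 without hypertonic replicate 2 and -1.06 without replicate 1.

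CCNT1 (ENSG00000129315, chr12:48688458-48716998), the main cyclin of P-TEFb, measured 1.01 and 1.93 RPKM against 2.84 and 3.00. The groups did not overlap, and replicate 1 was the lower, with a log2 fold change of -0.99 ± 0.46 (edgeR adjusted p = 0.49). CDK9 (ENSG00000136807, chr9:127786049-127790787), the kinase itself, measured 1.65 and 2.75 against 3.77 and 3.44 RPKM. Again both hypertonic values were lower, and the log2 fold change was -0.71 ± 0.56 (edgeR adjusted p = 0.79). CCNK (ENSG00000090061, chr14:99481409-99535044), the cyclin of CDK12 and CDK13, measured 0.653 and 0.636 RPKM in the hypertonic and 1.06 and 1.33 in the isotonic libraries. The hypertonic libraries nearly coincided, and the log2 fold change was -0.89 ± 0.43 (edgeR adjusted p = 0.50).

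The kinases partnered by CCNK differed less. CDK12 measured 1.83 and 1.90 against 2.23 and 2.10 RPKM, a log2 fold change of -0.21 ± 0.37, and its deposited entry covers 71.0% of the GENCODE gene. CDK13 measured 4.27 and 2.03 against 2.91 and 3.18 RPKM, so that its hypertonic libraries lay on both sides. CDK7, the kinase of the initiation factor TFIIH, measured 2.30 and 1.44 against 1.86 and 1.56 RPKM, with a log2 fold change of 0.13 ± 0.42.

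The genes of the pausing factors NELF and DSIF were lower in hypertonic replicate 1 for 6 of 6 members and on both sides of the isotonic mean in replicate 2. In replicate 1, 29 of the 39 genes lay below the isotonic mean. So did 3499 of the 4828 expressed protein-coding genes and 10644 of all 21238 genes tested. NELFCD (ENSG00000101158, chr20:58981208-58995133), a subunit of the NELF core, measured 0.813 and 2.73 RPKM against 3.90 and 3.05. Replicate 1 was far below and replicate 2 just below the isotonic libraries, with a log2 fold change of -0.97 ± 0.61 (edgeR adjusted p = 0.66). NELFA measured 0.0928 and 0.715 against 0.766 and 0.643 RPKM, values singled out because replicate 1 held only 60 reads of it against 497 in replicate 2. The deposited NELFA entry covers 46.3% of the GENCODE gene. NELFB and NELFE, of which NELFE carries an RNA-binding domain, differed from the isotonic mean by -0.72 and -1.53 (log2) in replicate 1 and by 0.81 and 0.69 in replicate 2.

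SUPT4H1 (ENSG00000213246, chr17:58345178-58352499), the small subunit of DSIF, measured 1.22 and 2.70 RPKM against 5.11 and 3.38, a log2 fold change of -1.12 ± 0.58 (edgeR adjusted p = 0.56). Both hypertonic libraries were lower, replicate 1 more so. Its larger partner SUPT5H (ENSG00000196235, chr19:39441643-39476670) measured 0.414 and 1.64 RPKM against 0.954 and 0.969. The isotonic libraries differed by 0.02 on the log2 scale, while the hypertonic ones lay to either side of them, and the log2 fold change was 0.09 ± 0.63 (edgeR adjusted p = 0.996). The sign of SUPT5H turned with the replicate as a block (-0.22) and in limma-voom (-0.21).

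The histone chaperones, which take nucleosomes apart and rebuild them around the moving polymerase, included the gene with the widest gap between hypertonic libraries. SSRP1 (ENSG00000149136, chr11:57325985-57335877), a subunit of the FACT complex, measured 1.17 and 13.1 RPKM in the hypertonic and 3.65 and 6.85 in the isotonic libraries. Those were its lowest and highest values of the 4 libraries, and the log2 fold change of 0.44 ± 0.87 was -2.17 without hypertonic replicate 2 and 1.29 without replicate 1. SUPT16H, the other FACT subunit, differed from the isotonic mean by -1.42 (log2) in replicate 1 and 0.44 in replicate 2. SUPT6H, which binds the phosphorylated polymerase, gave -1.48 and 0.50.

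The PAF1 complex travels with the polymerase and recruits histone-modifying enzymes, and its 5 genes showed no common direction. PAF1 (ENSG00000006712, chr19:39385852-39391195) measured 1.01 and 5.55 RPKM against 1.58 and 3.62, with the hypertonic libraries again at the extremes and a log2 fold change of 0.34 ± 0.81 (edgeR adjusted p = 0.99). CTR9, the scaffold subunit, was 1.94 and 2.18 against 1.73 and 1.78 RPKM, higher in both hypertonic libraries by a log2 fold change of 0.24 ± 0.41, in an entry that covers 56.8% of the GENCODE gene. CDC73, the longest of the 5 entries, differed from the isotonic mean by 0.25 (log2) in replicate 1 and -0.86 in replicate 2. LEO1 and RTF1 had the opposite signs, at -1.57 and -0.17 in replicate 1 and 0.15 and 0.48 in replicate 2.

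Of the super elongation complex, ELL2 had the most negative fold change of the 39 genes, and it rests on 1 isotonic library. ELL2 (ENSG00000118985, chr5:95885098-95962071), which raises the rate of elongation, measured 4.26 and 1.77 RPKM in the hypertonic and 3.92 and 14.0 in the isotonic libraries. Isotonic replicate 2 was far above the others, which overlapped, and the log2 fold change of -1.57 ± 0.66 (edgeR adjusted p = 0.43) was -0.42 without that library. Without the filter on low counts ELL2 was the only one of the 39 called (edgeR adjusted p = 0.007; 0.126% of 37347 genes were called lower and 2.33% higher). ELL (ENSG00000105656, chr19:18442663-18522127), its paralogue, measured 0.331 and 0.764 against 0.805 and 1.12 RPKM, lower in both hypertonic libraries by a log2 fold change of -0.81 ± 0.50 (edgeR adjusted p = 0.66). AFF1, a scaffold of the complex, was at 2.68 and 1.49 against 2.07 and 2.19 RPKM, a log2 fold change of -0.03 ± 0.44.

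The 2 genes of the 7SK particle differed in sign. HEXIM1 (ENSG00000186834, chr17:45148502-45152101), the inhibitor of P-TEFb, measured 19.7 and 6.79 RPKM in the hypertonic and 4.42 and 5.63 in the isotonic libraries. Both hypertonic libraries were higher and the groups did not overlap, though replicate 2 exceeded isotonic replicate 2 by less than the isotonic libraries differed from each other on the RPKM scale. Its mean was 13.3 ± 9.14 against 5.03 ± 0.857 RPKM (SD, n = 2), and the fitted level was 2.64-fold higher (log2 fold change 1.40 ± 0.59, edgeR adjusted p = 0.43). The value was 1.97 without hypertonic replicate 2 and 0.40 without replicate 1, so most of it comes from replicate 1. LARP7, which protects the 7SK RNA, measured 1.27 and 4.36 against 3.58 and 4.32 RPKM, and the log2 fold change was -0.49 ± 0.57. TCEA1 (ENSG00000187735, chr8:53966552-54022529), the TFIIS factor that restarts backtracked polymerase, measured 2.91 and 1.56 RPKM against 2.76 and 2.22. Its groups overlapped, and the log2 fold change was -0.16 ± 0.43 (edgeR adjusted p = 0.99).

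**Figure D3:**
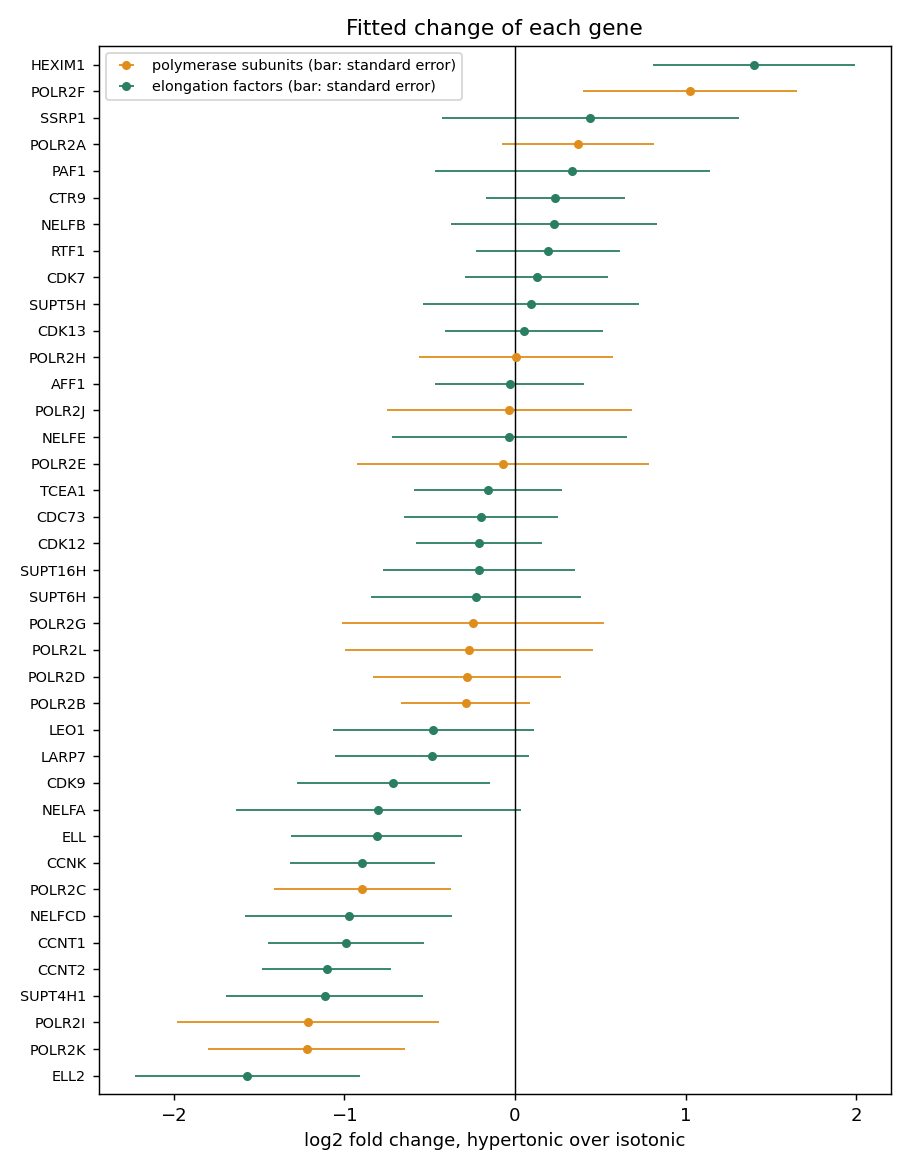
Fitted log2 fold change of each gene, hypertonic over isotonic, with 1 standard error to each side, sorted by value; orange marks the 12 subunit genes and green the 27 elongation factor genes. HEXIM1 at 1.40 and ELL2 at -1.57 are the ends of the range, and most error bars cross 0.

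The plot of fitted changes shows the cyclins CCNT1, CCNT2 and CCNK and the subunits POLR2C, POLR2I and POLR2K near the lower end, and HEXIM1 at the upper end. In isotonic medium the levels ran from 0.136 RPKM for the POLR2F entry and 0.230 for POLR2J to 8.96 for ELL2, with a median of 2.49 over the 39. CCNT2 (6.20), POLR2K (5.74), SSRP1 (5.25) and HEXIM1 (5.03) followed ELL2. ELL2, at 8.96 ± 7.13 RPKM (SD, n = 2), overlapped all 4 of them, and the isotonic values of SSRP1 overlapped those of CCNT2, POLR2K and HEXIM1. In the hypertonic libraries HEXIM1 was the highest of the 39 in replicate 1 and SSRP1 in replicate 2.

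Gene length and base composition moved with the differences between the hypertonic libraries, and their part in the results was not tested. Across the 39 genes, length correlated with the difference from the isotonic mean at a Spearman rho of 0.36 in hypertonic replicate 1 and -0.26 in replicate 2. GC content of the longest transcript correlated at -0.17 in replicate 1 and 0.52 in replicate 2. It is that of the spliced transcript, without the introns that the counted bases include. The 4828 expressed protein-coding genes gave 0.34 and -0.30 for length and -0.15 and 0.40 for GC content. The differences in the 2 hypertonic libraries correlated with each other at -0.05 across the 39 genes and -0.02 across the expressed protein-coding ones. These are descriptions across genes, which are not independent replicates and share libraries and the isotonic mean. The subunit genes are the shorter and GC-richer part, with a median entry length of 7841 bases and a median GC content of 56.0%, against 33782 bases and 46.3% for the elongation factors.

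**Figure D4:**
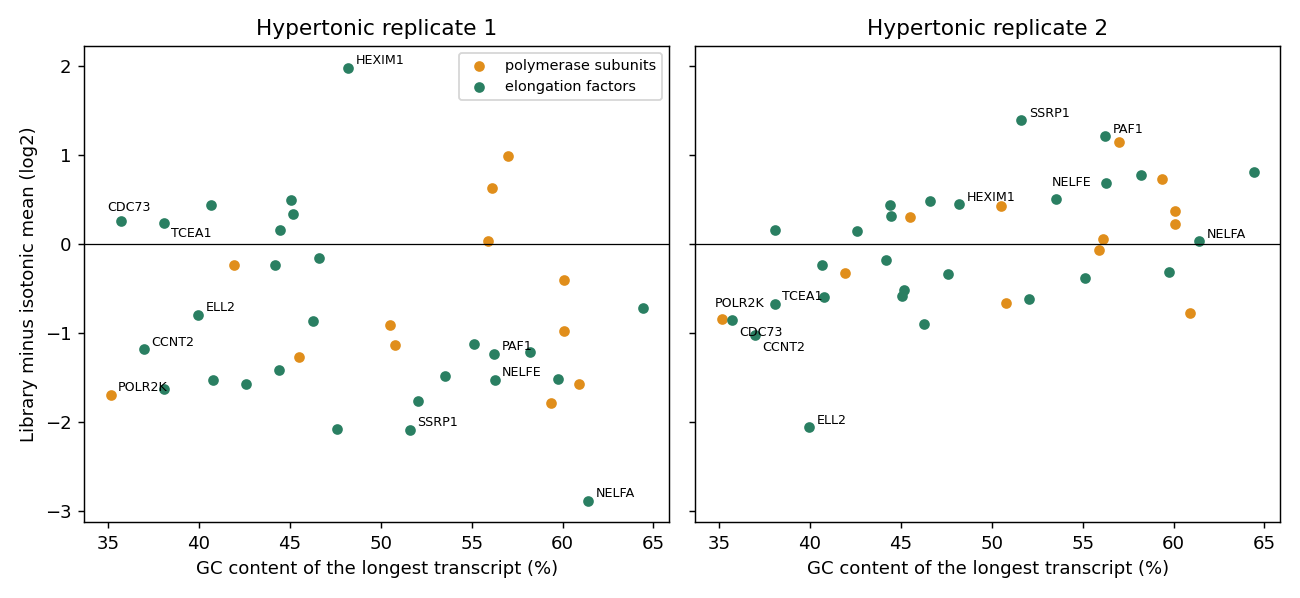
Difference from the isotonic mean (log2 CPM) in hypertonic replicate 1 (left) and replicate 2 (right) against the GC content of each gene's longest transcript in percent; orange marks the 12 subunit genes and green the 27 elongation factor genes. In replicate 2 the points tend to lie higher with higher GC content (Spearman rho 0.52), with exceptions such as LARP7, of low GC content and above 0, and POLR2I and ELL, GC-rich and below 0; in replicate 1 the slope is weaker and of the opposite sign (-0.17).

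In the plot by GC content, TCEA1, CDC73, PAF1 and NELFE lie on opposite sides of 0 in the 2 hypertonic libraries. CCNT2 and POLR2K, both of low GC content (37.0% and 35.2%), lay low in both libraries.

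Reads on the opposite strand were more frequent in the hypertonic libraries over all genes tested, and the number of the 39 genes with such a difference was near that background. An antisense entry existed for 38 of the 39 genes, and 28 of them had at least 10 reads over the 4 libraries. In 16 of those 28 both hypertonic libraries exceeded both isotonic ones and in 1 both were lower, against 57.3% and 2.23% of 12176 such entries over all genes tested. Antisense reads were 4.50 and 2.16% of sense plus antisense reads of the 38 genes in the hypertonic libraries and 1.01 and 0.959% in the isotonic ones, against 3.00, 1.71, 0.916 and 0.912% over the expressed protein-coding genes. Reads of single genes below are raw counts, while the groups were compared after scaling to effective library size (CPM). NELFA stood out. It had 494.9 and 139 antisense reads (20.9 and 5.46 CPM) in hypertonic and 65 and 71.3 (1.59 and 3.68) in isotonic libraries. In hypertonic replicate 1 this was 825% of its sense reads per kilobase, against 7.62 to 28.0% elsewhere, and the convergent gene NSD2 ends 506 bases from its end. SUPT6H had 197.6 and 18 against 2 and 4 antisense reads, with PROCA1 ending 512 bases away, and PAF1 132.5 and 152.2 against 70 and 68.1, with SAMD4B 141 bases away. Of the 28 entries, 15 had a convergent gene that ended within 5 kb. AFF1 had none and held 448.2 and 170 against 75 and 45 antisense reads. CDK13, with 185.7 and 62.7 against 45 and 24, and CCNK, with 190 and 21 against 24 and 14, had none either. LEO1, also without one, had 771.5 and 222.3 against 358 and 201, and its groups overlapped. POLR2A and POLR2K had 0 antisense reads in every library.

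Genes that start on the same strand within 10 kb after the end of a member were few. Of 12 such genes tested, 3 had both hypertonic libraries above both isotonic ones and 0 below, against 46.1% and 6.81% of 1453 such genes after expressed protein-coding genes, and the median log2 fold change was 0.36 against 0.62. AC006011.2, a processed pseudogene 1787 bases after POLR2D, measured 2.81 and 3.53 RPKM in the hypertonic and 0.127 and 0.267 in the isotonic libraries, with a fitted log2 fold change of 4.05 ± 0.86 (edgeR adjusted p = 0.19). HEXIM2, the paralogue of HEXIM1 that starts 8598 bases after it, measured 0.276 and 0.198 against 0.113 and 0.0718 RPKM, a log2 fold change of 1.34 ± 0.74 (edgeR adjusted p = 0.59). Its groups did not overlap, as for HEXIM1.

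The other genes of the transcription machinery, taken from 7 lists, likewise gave 0 calls in edgeR in either direction with all libraries and the filter, and without the replicate block. Of 19 general transcription factor genes 15 were negative, with a median log2 fold change of -0.29. The TATA-binding protein gene TBP was at -1.35 ± 0.61, the TFIID subunit gene TAF11 at -1.65 ± 0.68 and GTF2A1, a TFIIA gene, at 1.04 ± 0.44. The 9 TFIIH genes had a median of 0.21, with CCNH, the cyclin of CDK7, at -1.14 ± 0.50. Among 8 tested genes of 9 that belong with P-TEFb, 7SK and the super elongation complex, the median was -0.18, and EAF1, a partner of ELL, was at -1.41 ± 0.60.

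Of the 9 other elongation factor genes, with a median of -0.34, TCEA3 differed most. This tissue-restricted TFIIS gene measured 0.512 and 0.192 RPKM in the hypertonic and 0.0303 and 0.0390 in the isotonic libraries. Its groups did not overlap, and the log2 fold change was 3.34 ± 0.74 (edgeR adjusted p = 0.19); it was called higher by DESeq2, by edgeR without the filter on low counts and with the replicate block, and these fits called no other gene of the 7 lists. Without hypertonic replicate 2, the median log2 fold changes of the 7 lists ran from -0.75 to 0.16. In that fit the median was -0.56 over the expressed protein-coding genes and -0.04 over all genes tested. TCEA2, the third TFIIS gene, was at 1.45 ± 0.81 with overlapping groups. The 10 genes of CTD phosphatases and binders had a median of -0.27, the 9 of polymerase assembly one of -0.04 and the 19 subunit genes of polymerases I and III one of -0.19, where POLR3F was at -1.10 ± 0.61.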

How the data were processed

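Nascent RNA was measured in 4 Bru-seq libraries, 2 hypertonic and 2 isotonic, per the labels. The authors deposited a table per library, without a header, that gives each gene and strand an expected count and an RPKM value; both units were read from the values, the RPKM being the count divided by counted bases and by a constant of the library. Per the submitters' processing notes, STAR 2.5.3a, bedtools 2.16.2, Bowtie2 2.3.3 and CASAVA 1.8.2 were used, in roles that are not given, with GRCh38 (hg38); no source used here gives the annotation release. The protocol mentions a strand-specific step for certain samples without naming them. Entries for regions shared by overlapping genes (3.11 to 3.48% of counts) and genes unmatched to GENCODE 29 (0.165 to 0.209%) were left out.

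Expected counts of sense entries were rounded to whole numbers and fitted over all genes with edgeR 4.0.16 in R 4.3.3 (TMM factors, default filter, quasi-likelihood test, Benjamini-Hochberg adjustment over 21238 genes at 0.05). Standard errors (SE) of log2 fold changes are the absolute value over the square root of the F statistic. Differences from the isotonic mean use log2 CPM with a prior count of 2. The script was tested on simulated data. DESeq2 1.42.0, limma-voom (limma 3.58.1), other scalings, no filter, a replicate block and the omission of each library were alternatives. Any 2 against 2 libraries give an exact permutation p of at least 0.333, so none is printed. No molecular identifiers are named, so counts are of reads. Promoter sequences are RefSeq's; of 8 motifs searched, 5 were kept for marking after their shares were seen (the CCAAT box has no match in the printed stretches), the NRF1 core in place of the longer site searched first. Genes named with values in every library include 10 set members, those with an unadjusted p under 0.05, those whose groups did not overlap at a log2 fold change of at least 0.8 in size and genes drawn from the 3 with the smallest p in each list (1 of these is not reported here); NELFA, SSRP1 and others given by library were added after their values were seen. The members and lists were chosen with earlier results of these data known. Figures were drawn with matplotlib 3.10.9.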

Additional observations from a re-analysis of the deposited data

How the results depend on the processing

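With 2 libraries a group, the errors rest on 1 gap per group, and low counts limit genes such as POLR2I. edgeR called 0 genes, and the same count was 916 without a filter, 384 with the replicate block, 731 in DESeq2 and 0 to 4918 when 1 library was left out; the 4918 came from omitting hypertonic replicate 2, against 6 from omitting isotonic replicate 1 and 4 from omitting the other isotonic library. Of the 39 genes, 1 was called without a filter (ELL2) and 0 to 16 when 1 library was left out. The median of the subunits ran from -1.06 to 0.10 and that of the elongation factors from -1.19 to -0.20 over these omissions. The 16 genes without overlap between groups were 10 by total count, and the cause of none of these shifts was tested. The labels number the replicates and do not say whether same-numbered libraries were paired. Same-numbered libraries deviated together at a correlation of 0.025 over 21238 genes. This cannot decide the question, since all the genes come from the same 4 libraries. The block called 0 of the 39.

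The sign of single genes turned in 30 of 273 fits that kept all libraries, for 17 genes, and in 30 of 156 fits that left 1 out, for 21; for 17 of the 39 genes it turned in none. By total count AFF1 was at 0.14, CDK12 0.011, NELFE 0.31, POLR2D 0.025, POLR2E 0.29, POLR2G 0.025, POLR2J 0.17, POLR2L 0.013, SUPT16H 0.11, SUPT6H 0.12 and TCEA1 0.00047. By upper quartile AFF1 was at 0.17, CDC73 0.0077, NELFE 0.13, POLR2E 0.088, POLR2J 0.16 and TCEA1 0.047. With the replicate block CDK13 was at -0.045, PAF1 -0.0097, POLR2H -0.021, SSRP1 -0.35 and SUPT5H -0.22, and in limma-voom CDK13 -0.045, POLR2H -0.053, SSRP1 -0.27 and SUPT5H -0.21. POLR2H was at -0.042 by RLE, -0.043 in DESeq2 and -0.054 without a filter, where CDK13 was at -0.018. Leaving out 1 library at a time gave ranges of -0.55 to 0.33 for AFF1, -0.89 to 0.25 for CDC73, -0.62 to 0.49 for CDK13, -0.28 to 0.42 for CDK7, -1.64 to 0.11 for LARP7, -1.59 to 0.11 for LEO1, -0.73 to 0.77 for NELFB, -1.54 to 0.65 for NELFE, -1.36 to 1.07 for PAF1, -1.27 to 0.26 for POLR2D, -1.86 to 0.68 for POLR2E, -1.09 to 0.53 for POLR2G, -0.44 to 0.31 for POLR2H, -0.21 to 0.11 for POLR2J, -1.02 to 0.18 for POLR2L, -0.17 to 0.45 for RTF1, -2.17 to 1.29 for SSRP1, -1.43 to 0.40 for SUPT16H, -1.22 to 0.74 for SUPT5H, -1.54 to 0.41 for SUPT6H and -0.71 to 0.22 for TCEA1.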
